A study of Mus musculus with 9 samples.

Results

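Cyclins are the regulatory subunits of the cyclin-dependent kinases (CDKs), the enzymes that carry a cell through the division cycle. D-type cyclins (Ccnd1, Ccnd2 and Ccnd3) pair with Cdk4 and Cdk6 and link growth signals to the start of the cycle, E-type cyclins (Ccne1 and Ccne2) pair with Cdk2 at entry into DNA synthesis, cyclin A2 (Ccna2) acts through DNA synthesis and G2, and B-type cyclins (Ccnb1 and Ccnb2) pair with Cdk1 to start mitosis. Cyclin F (Ccnf) differs from these in that it is the substrate adaptor of an SCF ubiquitin ligase and is not known to activate a CDK. Most hepatocytes of an adult liver are quiescent, and they re-enter the cycle nearly together after part of the organ is removed, with Ccnd1 known as an early marker of that entry.

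These 9 genes were followed by name in the deposited table of 43346 mouse genes, and all 9 were among the 15024 genes with enough reads to be tested. Bulk RNA-Seq was run on whole liver of male 12-week-old C57/BL6 mice that underwent 70% partial hepatectomy. Treated mice received NSC-87877 (NSC), an inhibitor of the protein tyrosine phosphatases SHP1 and SHP2, at 7.5 mg/kg per dose, and the others received vehicle. The labels put the first dose 12 hours before surgery, whereas the study's methods put it a day before. By those methods, dosing then went on every 12 hours until the mice were killed. There were 3 groups of 3 livers: vehicle at 0 hours (baseline), which is tissue resected at the operation, and the remnants of vehicle and of NSC mice 40 hours later. No NSC liver at 0 hours and no sham operation was analysed here, so a response to the drug before surgery cannot be told apart from one after it, nor surgery from the time passed and the lobes sampled. The labels do not tie livers to mice, so p-values measure the spread between these samples. NSC was given to the whole animal, and bulk tissue cannot tell a change in the number of cycling cells from a change in transcript per cell.

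Library totals ran from 23997363 to 42887589 counts, and 3 counts in a library corresponded to between 0.0751 and 0.117 CPM (counts scaled to library size) after TMM scaling. Hepatocyte markers dominated every library, with a summed level of 6 markers from 90110 to 127200 CPM. A library stood apart in the results that follow: the liver of NSC replicate 1 was the lowest of the 6 livers at 40 hours for 5 of the 9 cyclins, against 24.6% of all genes tested. Fold changes and p-values come from edgeR's quasi-likelihood test on counts, with Benjamini-Hochberg adjustment over all genes tested. A gene was called where the adjusted p was below 0.05 and the change exceeded 1.5 on the log2 scale in either direction.

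The promoter sequence of these genes is described here as sequence only. Any part it has in the changes at 40 hours was not tested. RefSeq promoter windows (GRCm38.p6, 250 bases before to 50 after the annotated start) were matched for 5 of the 9 cyclins, Ccnd3 (in 2 windows), Ccne1, Ccnb1, Ccnb2 and Ccnf. Both strands were searched for the CCAAT box, CCAAT, and for the letters TTTGAA and TTTAAA of the cell cycle genes homology region (CHR), an element known from G2/M genes. The stretches below are shown because they hold those letters, which stand in capitals, and each is written 5′ to 3′ on the gene's own strand.
Ccnb2, chr9:70421555-70421729, minus strand: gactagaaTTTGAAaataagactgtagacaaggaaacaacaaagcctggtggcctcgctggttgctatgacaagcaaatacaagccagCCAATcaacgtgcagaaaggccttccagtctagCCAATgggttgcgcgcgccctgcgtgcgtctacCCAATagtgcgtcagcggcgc
Ccnb1, chr13:100786572-100786596, minus strand: aacccgcggcgCCAATgggaagaga
Ccnb1, chr13:100786536-100786562, minus strand: acgaactggCCAATgaggagcgagcgg
Ccnb1, chr13:100786511-100786537, minus strand: ggcccggggTTTAAAcctaagcccggc
Ccnf, chr17:24251505-24251564, minus strand: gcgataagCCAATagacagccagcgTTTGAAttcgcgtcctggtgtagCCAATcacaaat
Ccnf, chr17:24251410-24251435, minus strand: gctcccggcgcgTTTGAAaacggggc
Ccne1, chr7:38107491-38107516, minus strand: gcgctgggattTTTAAAtgtcccgct

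The Ccnb2 window held 3 CCAAT boxes, and besides the TTTGAA shown it had another that began at base 5 after the start. The Ccnb1 window held 2 CCAAT boxes and 1 TTTAAA, which reads the same on both strands, and the Ccnf window held 2 CCAAT boxes and 2 TTTGAA. CHR and CCAAT letters occurred together in these 3 windows and in 10.7% of all 32851 promoter windows of this length. The Ccne1 window held TTTAAA and no CCAAT, and of the Ccnd3 windows one held a single CCAAT and the other none of these letters. Either CHR form was found in 27.6% of all windows and CCAAT in 37.4%. The E2F letters TTTGGCGC, TTTCGCGC, TTTGCGCC and TTTCCCGC were in none of the 6 cyclin windows and in 2.25% of all windows. These matches describe letters in the windows and no binding.

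Between baseline and 40 hours under vehicle, 6 of the 9 cyclins rose, with members of the D-, E-, A- and B-type classes among them. Ccnd1, Ccne1, Ccne2, Ccna2, Ccnb1 and Ccnb2 were called higher at 40 hours than at baseline, whereas 5.03% of all genes tested were called higher in that comparison. The median log2 fold change of the 9 cyclins was 3.22, beside 0.01 for all genes. No cyclin was called lower, where 2.19% of all genes were. In NSC livers the same 6 genes were called higher than baseline, against 5.38% of all genes, and none lower, against 2.75%, with a median of 3.22 over the 9 cyclins. All 3 livers at 40 hours exceeded all 3 baseline livers for 8 cyclins under vehicle, against 24.2% of all genes, and for 6 under NSC, against 24%. Both comparisons use the same 3 baseline livers, so their calls are not independent of each other.

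**Figure D1:**
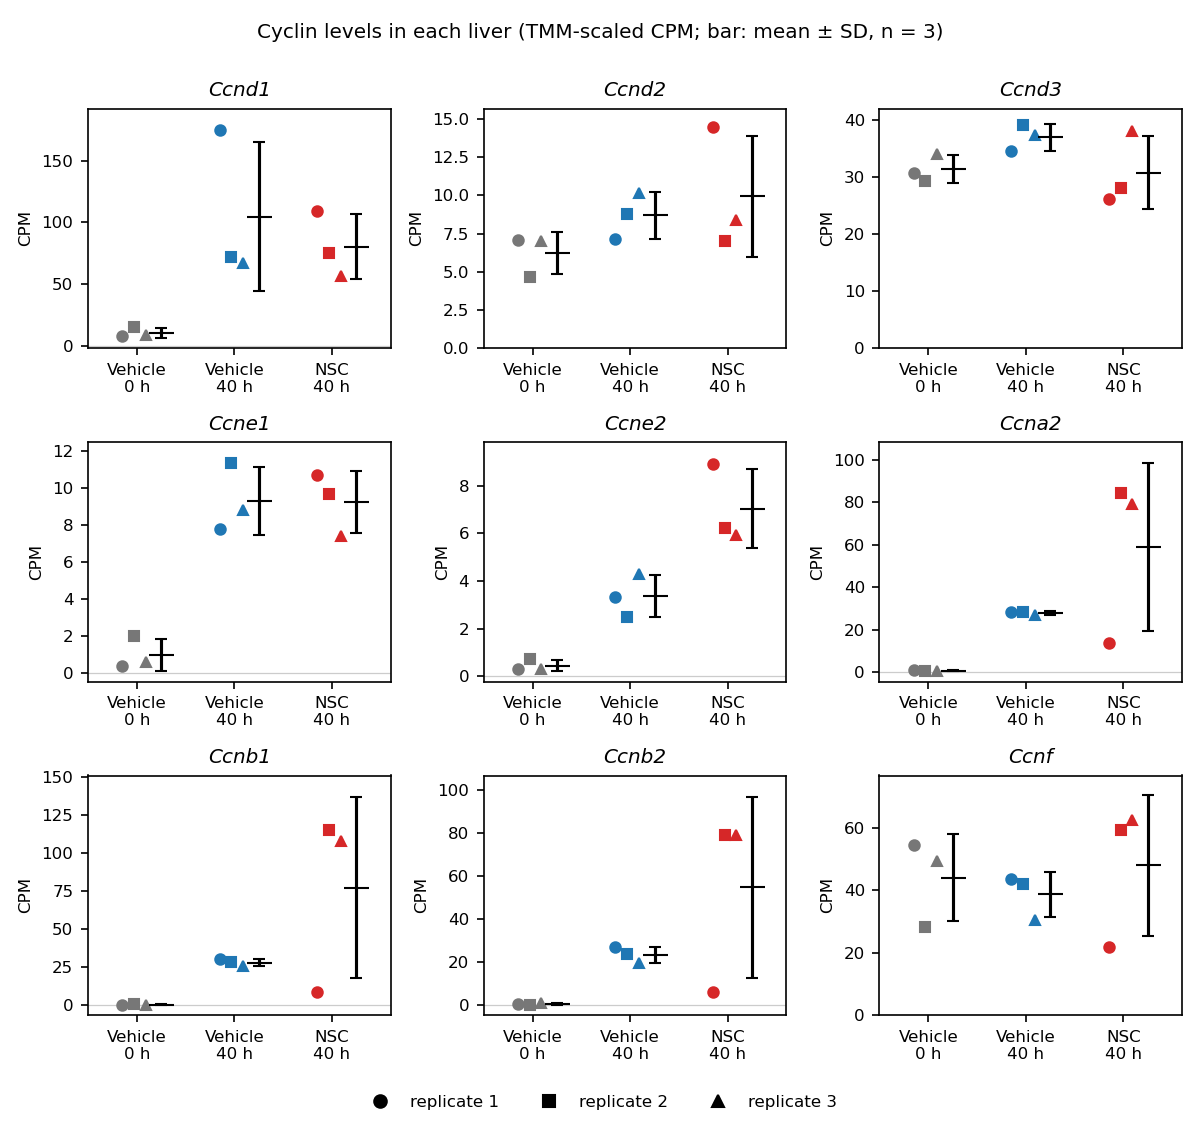
TMM-scaled CPM (vertical axes, linear and scaled for each gene) of the 9 cyclins in each liver, by group (horizontal axes), with symbols for replicates 1 to 3 and the mean ± SD beside them. In the NSC group, replicate 1 lay at 8.31 CPM of Ccnb1 while replicates 2 and 3 lay at 115 and 108 CPM. All 3 NSC livers lay above the vehicle livers for Ccne2, as for 10.3% of all genes tested.

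Ccnd1 (ENSMUSG00000070348; chr7:144929931-144939869, GRCm38), the D-type cyclin of the regenerating liver, stood at 7.74, 15.3 and 9.11 CPM in the baseline livers. It reached 175, 72.1 and 67.4 CPM in vehicle livers at 40 hours, a rise of 9.78-fold (log2 fold change 3.29 ± 0.48 SE, adjusted p = 0.0022). NSC livers held 109, 75.1 and 57.0 CPM, 7.51-fold above baseline (log2 2.91 ± 0.47, adjusted p = 0.0023). The livers at 40 hours did not overlap the baseline, and vehicle replicate 1 stood well above the other vehicle livers. Ccnd2 (ENSMUSG00000000184; chr6:127125779-127151048), the paralog best known from gonads and beta cells, stayed at 4.67 to 7.08 CPM at baseline, 7.13 to 10.2 CPM under vehicle and 7.0 to 14.5 CPM under NSC. Its log2 fold changes from baseline were 0.48 ± 0.28 under vehicle (adjusted p = 0.24) and 0.67 ± 0.28 under NSC (adjusted p = 0.080), neither past the threshold. Ccnd3 (ENSMUSG00000034165; chr17:47505051-47599691), the third D-type cyclin, ran from 26.2 to 39.1 CPM over all 9 livers, with log2 fold changes of 0.24 ± 0.16 under vehicle (adjusted p = 0.30) and -0.03 ± 0.16 under NSC (adjusted p = 0.91), the latter turning to 0.11 with library size alone as the scale. The 95% confidence intervals of the Ccnd3 changes, from -0.11 to 0.58 and from -0.37 to 0.32 on the log2 scale, lie wholly below those of Ccnd1.

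The E-type cyclins rose from low levels. Ccne1 (ENSMUSG00000002068; chr7:38097984-38107534) measured 0.379, 1.98 and 0.594 CPM at baseline, 7.76, 11.3 and 8.78 CPM under vehicle and 10.7, 9.68 and 7.4 CPM under NSC. Its rise was 9.34-fold under vehicle (log2 3.22 ± 0.49, adjusted p = 0.0014) and 9.30-fold under NSC (log2 3.22 ± 0.49, adjusted p = 9.6e-04), and the groups at 40 hours overlapped. Without baseline replicate 2 the log2 changes were 4.25 and 4.24, so the size of the rise rests on that liver. Ccne2 (ENSMUSG00000028212; chr4:11191351-11204779) measured 0.316, 0.702 and 0.297 CPM at baseline and 3.33, 2.49 and 4.28 CPM under vehicle, 7.55-fold higher (log2 2.92 ± 0.37, adjusted p = 3.3e-04). Under NSC it measured 8.94, 6.25 and 5.95 CPM, 15.9-fold above baseline (log2 3.99 ± 0.38, adjusted p = 4.2e-05, and 3.27 after a correction for GC content). Every NSC liver exceeded every vehicle liver for Ccne2, as for 10.3% of all genes tested. Among the 9 cyclins, only Ccne2 had treatment groups that did not overlap at 40 hours. Baseline replicate 2 was the highest of the 3 baseline livers for Ccnd1, Ccne1 and Ccne2.

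The cyclins of DNA synthesis and mitosis, Ccna2, Ccnb1 and Ccnb2, had the largest fold changes of the 9 in both comparisons with baseline. Ccna2 (ENSMUSG00000027715; chr3:36564866-36572150) went from 0.979, 0.733 and 0.660 CPM to 28.4, 28.3 and 26.9 CPM under vehicle, a 35.0-fold rise (log2 5.13 ± 0.72, adjusted p = 0.0025). Ccnb1 (ENSMUSG00000041431; chr13:100778650-100786570), the mitotic partner of Cdk1, had 3, 7 and 5 counts in the baseline libraries, or 0.0948, 0.214 and 0.165 CPM, which is at or little above the 3-count floor. Under vehicle it reached 30.0, 27.9 and 25.4 CPM, a log2 fold change of 7.42 with a wide 95% confidence interval of 4.56 to 10.28 (adjusted p = 0.0054). Ccnb2 (ENSMUSG00000032218; chr9:70407689-70421554) went from 0.537, 0.305 and 0.891 CPM to 27.2, 23.8 and 19.6 CPM, a 40.8-fold rise (log2 5.35 ± 1.04, adjusted p = 0.011). The 3 vehicle livers lay close together for these 3 genes, with an SD of 0.82 CPM for Ccna2, 2.26 CPM for Ccnb1 and 3.78 CPM for Ccnb2.

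NSC livers did not lie close together for the same genes. Ccna2 measured 13.6, 84.1 and 79.1 CPM in NSC replicates 1, 2 and 3, Ccnb1 8.31, 115 and 108 CPM, and Ccnb2 6.33, 79.2 and 79.2 CPM. Replicate 1 thus fell below all vehicle livers and replicates 2 and 3 above all of them, for each of the 3 genes. All NSC livers remained far above baseline, with log2 fold changes of 6.21 ± 0.74 for Ccna2 (adjusted p = 8.7e-04), 8.90 ± 1.24 for Ccnb1 (adjusted p = 0.0020) and 6.57 ± 1.07 for Ccnb2 (adjusted p = 0.0037).

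Ccnf (ENSMUSG00000072082; chr17:24223232-24251409) was already abundant at baseline. It measured 54.3, 28.3 and 49.4 CPM at baseline, 43.7, 41.9 and 30.5 CPM under vehicle and 21.8, 59.4 and 62.6 CPM under NSC. Its log2 fold changes from baseline were -0.19 ± 0.39 under vehicle (adjusted p = 0.77) and 0.12 ± 0.39 under NSC (adjusted p = 0.84), neither past the threshold. Within the NSC group Ccnf was split as the A- and B-type cyclins were, with replicate 1 below all vehicle livers and replicates 2 and 3 above them. The microRNA genes Mir5134 and Mir6965 lie within Ccnf in the table and reached at most 0.374 CPM in any library.

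**Figure D2:**
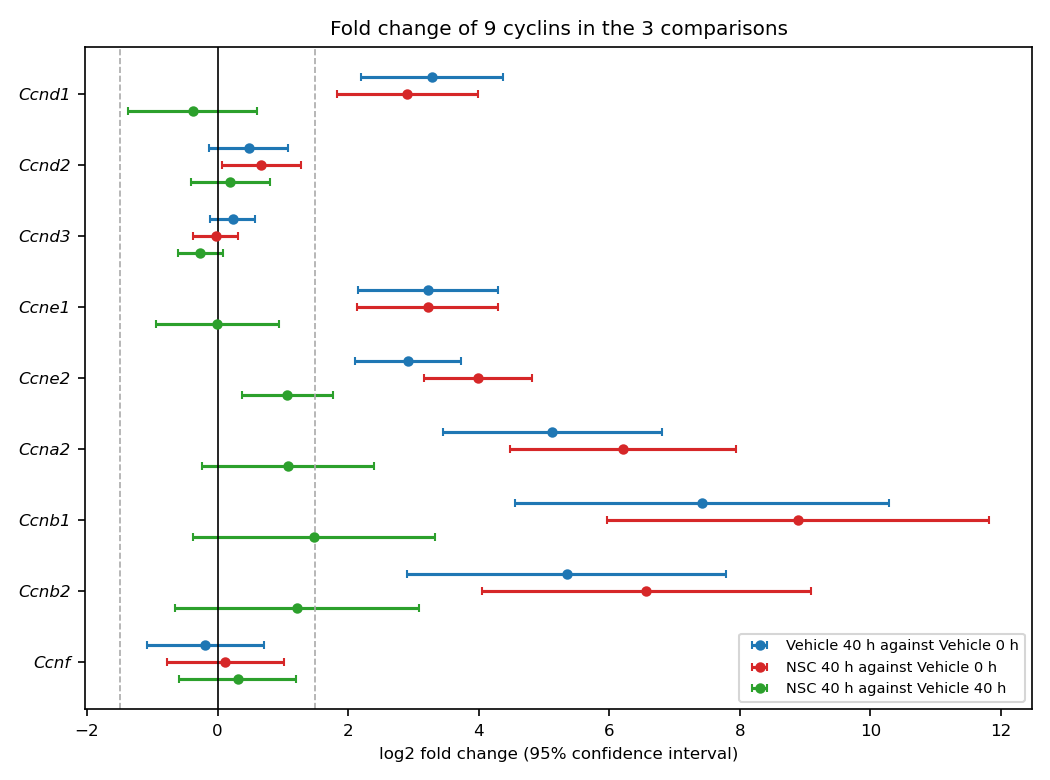
Log2 fold change (horizontal axis) with 95% confidence interval of each cyclin (vertical axis) in the 3 comparisons from edgeR, with dashed lines at the fold threshold of 1.5 on the log2 scale. The 6 cyclins called against baseline lie between 2.91 and 8.90, while every interval for NSC against vehicle at 40 hours includes 0 apart from that of Ccne2.

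The direct comparison of treatments at 40 hours, which asks whether the inhibitor changed the cyclins of the remnant, called none of the 9 genes by edgeR, and DESeq2 also called 0. Among all genes, 0% were called higher and 0.02% lower. Ccne2 stood at 7.05 ± 1.65 CPM under NSC against 3.37 ± 0.90 CPM under vehicle (mean ± SD, n = 3), a log2 difference of 1.07 with a 95% confidence interval from 0.38 to 1.76. It was the 1 cyclin of 9 with an unadjusted p under 0.05, where 19.5% of all genes had one, and its adjusted p from edgeR was 0.12. Groups did not overlap, with NSC higher, for that 1 cyclin of 9 and for 10.3% of all genes tested. Ccne1 had a log2 difference of -0.0049 (95% confidence interval -0.95 to 0.94), with its sign turning under other scalings. The log2 differences of Ccna2, Ccnb1 and Ccnb2 were 1.08, 1.48 and 1.22, with intervals from -0.24 to 2.40, from -0.38 to 3.33 and from -0.64 to 3.09, and adjusted p-values of 0.33, 0.34 and 0.43. For Ccnd1, Ccnd2, Ccnd3 and Ccnf they were -0.38, 0.20, -0.26 and 0.31, with adjusted p-values between 0.37 and 0.72.

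The count for the A- and B-type cyclins depended on NSC replicate 1. Without it, the log2 differences of NSC from vehicle were 1.55 for Ccna2 (adjusted p = 1.2e-04), 2.01 for Ccnb1 (adjusted p = 4.5e-05) and 1.75 for Ccnb2 (adjusted p = 0.0011), and all 3 were called, where 0.559% of 15390 genes tested were called higher. Leaving out any other library left the count of cyclins called at 0. The labels give no reason to set this liver aside, and with it in place the NSC group holds livers on both sides of the vehicle group.

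**Figure D3:**
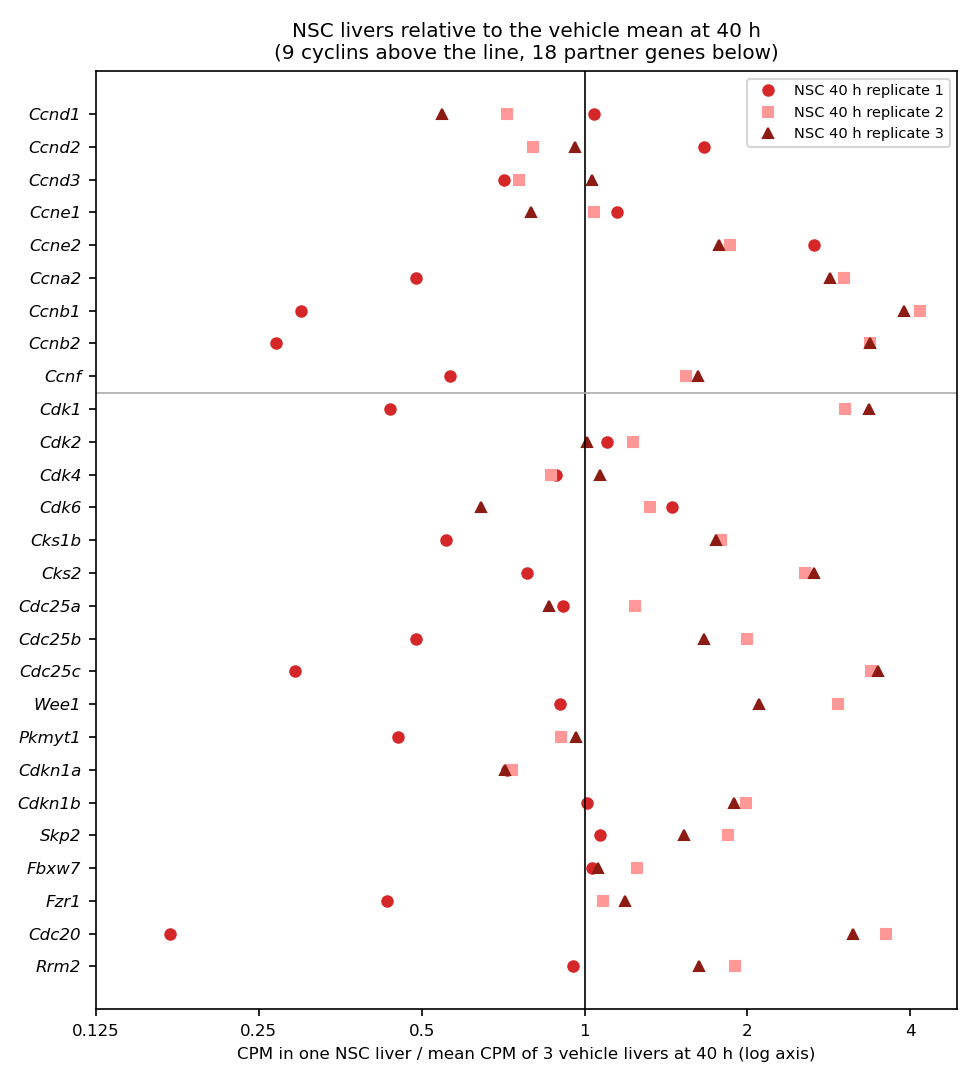
CPM in each NSC liver divided by the mean of the 3 vehicle livers at 40 hours (horizontal axis, log scale), for the 9 cyclins and 18 partner genes (vertical axis). Replicate 1 lies at 0.269 for Ccnb2 and 0.171 for Cdc20, where replicates 2 and 3 lie above 3, and the 3 livers lie at 1.77 to 2.66 for Ccne2.

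The cyclins of that liver did not all lie on one side of the others. NSC replicate 1 was the highest of the 6 livers at 40 hours for 2 of the 9 cyclins, Ccnd2 (14.5 CPM) and Ccne2 (8.94 CPM), close to its share of 21% among all genes tested. It stood at 1.04 and 1.15 times the vehicle mean for Ccnd1 and Ccne1, and it was the lowest for Ccnd3, Ccna2, Ccnb1, Ccnb2 and Ccnf. Ccna2, Ccnb1 and Ccnb2 there were 0.489, 0.299 and 0.269 times the vehicle mean, and in replicates 2 and 3 they were 2.84 to 4.16 times that mean. Replicate 1 also held the highest summed level of 5 macrophage markers, 273.8 CPM against 84.75 to 170.9 CPM in the other livers at 40 hours, and of 6 endothelial markers, 225.5 CPM against 109.7 to 176.8 CPM. Its sums of stellate and myofibroblast (353.9 CPM), neutrophil (16.68 CPM) and lymphocyte markers (2.25 CPM) were likewise the highest of the 6 livers. Most of the stellate and myofibroblast sum was Dcn, at 244 CPM. Of that list only Dcn and Acta2 were highest in NSC replicate 1. Col1a1, Pdgfrb and Des lay there below every vehicle liver at 40 hours, and Reln and Lrat below vehicle replicate 2. The sums of hepatocyte (93170 CPM), cholangiocyte (82.79 CPM) and erythroid markers (99.98 CPM) in NSC replicate 1 lay within the range of the other livers at 40 hours. The part of these cells in the cyclin values was not tested.

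Levels of different cyclins were compared per length, as FPKM (fragments scaled to gene length and library total) of the deposited table. At baseline Ccnf ranked highest at 13.7 ± 4.29 FPKM (mean ± SD, n = 3), with no overlap with Ccnd3 at 3.45 ± 0.288 FPKM. Gene length here is that of the summed exons, 3099 bases for Ccnf and 8775 for Ccnd3. In CPM, which is not scaled to length, both genes overlapped at baseline (28.3 to 54.3 for Ccnf and 29.3 to 34.1 for Ccnd3). Ccnd3 and Ccnd1 (2.69 ± 1.01 FPKM) overlapped, Ccnd2 followed at 1.06 ± 0.232 FPKM, and Ccnb2, Ccne1, Ccna2 and Ccne2 lay between 0.0825 and 0.719 FPKM, each overlapping its neighbour in the order. Ccnb1 was the lowest at 0.0362 ± 0.0138 FPKM. Under vehicle at 40 hours Ccnd1 led with 27.3 ± 17.9 FPKM and overlapped Ccnb2 at 14.9 ± 3.26 FPKM, which in turn overlapped Ccnf at 12.2 ± 2.67 FPKM. Ccna2 at 7.73 ± 0.694 FPKM and Ccnb1 at 6.43 ± 0.924 FPKM overlapped and exceeded Ccnd3 (4.09 FPKM), Ccne1 (3.37 FPKM), Ccnd2 (1.48 FPKM) and Ccne2 (0.944 FPKM), which did not overlap one another. Under NSC the 5 highest cyclins, from Ccnb2 at 37.2 ± 28.4 FPKM to Ccnf at 16.3 ± 7.44 FPKM, overlapped from one to the next, so their order rests on the spread between those livers.

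Expressed as shares of the summed FPKM of the 9 genes, Ccnf made up 69.6, 48.9 and 65.0% in the baseline livers and 12.2 to 18.4% in all livers at 40 hours. B-type cyclins made up 1.33 to 2.51% at baseline, 24.4, 30.0 and 29.1% under vehicle and 10.6, 52.0 and 53.1% under NSC. D-type cyclins made up 33.8 to 50% under vehicle, and 59.1% in NSC replicate 1 against 15.9 and 14.3% in replicates 2 and 3. E-type cyclins stayed at 11.4% or less in every liver, their highest share being that of NSC replicate 1. The sum itself was 18 to 24.2 FPKM at baseline, 62.4 to 107 FPKM under vehicle and 63.5, 155 and 154 FPKM under NSC. These shares are descriptions and were not tested.

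**Figure D4:**
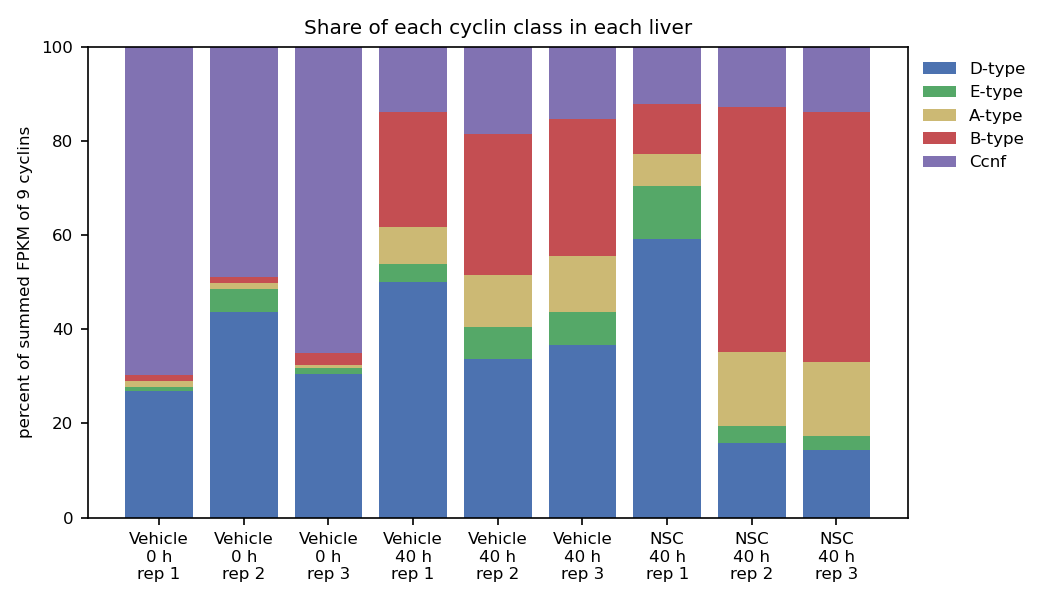
Share of each cyclin class in the summed FPKM of the 9 cyclins (vertical axis, percent) in each of the 9 livers (horizontal axis). Ccnf fills 48.9 to 69.6% of the baseline bars, and B-type cyclins fill 52.0 and 53.1% of the bars of NSC replicates 2 and 3 but 10.6% of that of NSC replicate 1.

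Paralogs were also compared as ratios within a liver, with 4 pairs tested in 3 contrasts by an exact two-sided permutation test of 3 livers against 3, which cannot give a p below 0.1, with adjustment over the 12 tests. The log2 ratio of Ccnd3 to Ccnd1, with 0.1 FPKM added to each, was 0.40 ± 0.56 (SD, n = 3) at baseline and -2.52 ± 0.85 under vehicle and -2.52 ± 0.73 under NSC at 40 hours (exact p = 0.1 against baseline in both, adjusted p = 0.2). The ratio of Ccnd2 to Ccnd1 moved alike, from -1.23 ± 0.80 to -3.94 ± 1.00 and -3.53 ± 0.33 (exact p = 0.1, adjusted p = 0.2). For Ccne2 to Ccne1 the livers read -1.52, -2.41 and -1.36 under vehicle and -0.63, -0.99 and -0.68 under NSC, a difference of 1.00 between groups that did not overlap (exact p = 0.1, adjusted p = 0.2). This ratio was -0.87 ± 0.57 at baseline, and it did not separate either treatment from baseline (exact p = 0.2 for vehicle and 0.8 for NSC). The ratio of Ccnb2 to Ccnb1 was 1.30, 1.21 and 1.06 under vehicle and 1.03, 0.91 and 1.00 under NSC (exact p = 0.1, adjusted p = 0.2). The proportion of both B-type genes in NSC replicate 1 thus lay close to that in replicates 2 and 3, while their levels were far apart. Against baseline this ratio turned its sign with the amount added to the FPKM, so no direction is given for it.

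Partner genes of the cyclins were taken from a list of 34, of which 32 were tested. Under vehicle 18 of these passed the adjusted p against baseline upward and 2 downward, where 12.7% and 11% of all genes did, and their median log2 fold change was 1.58. Under NSC 20 rose and 3 fell, where 18.2% and 16.5% of all genes did, with a median of 1.69. Between treatments at 40 hours 0 of the 32 passed by edgeR, where 0% of all genes passed upward and 0.0399% downward, 2 had an unadjusted p under 0.05 (19.5% of all genes), and the median difference was 0.24 on the log2 scale.

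The kinases followed their cyclins unevenly. Cdk1, the partner of the B-type cyclins, stood at 1.42, 1.22 and 1.19 CPM at baseline and 58.1, 56.8 and 48.8 CPM under vehicle, a log2 fold change of 5.41 ± 0.78 (adjusted p = 0.0030). In NSC livers it measured 23.8, 166 and 184 CPM, split as Ccnb1 and Ccnb2 were, and its change from baseline was 6.60 ± 0.82 on the log2 scale (adjusted p = 0.0011). Cdk4 rose by 0.40 under vehicle (log2, adjusted p = 0.0496) with a value of 0.32 under NSC (adjusted p = 0.090), and Cdk2 rose by 0.47 under NSC (adjusted p = 0.037) with a value of 0.32 under vehicle (adjusted p = 0.16). Cdk6 had log2 fold changes of -0.14 and 0.05 (adjusted p = 0.76 and 0.92).

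Among the regulators of those kinases, the Cdc25 phosphatases, which remove inhibitory phosphates, all rose from baseline. The log2 fold changes under vehicle and NSC were 1.63 and 1.63 for Cdc25a, 3.09 and 3.55 for Cdc25b, and 7.47 and 8.71 for Cdc25c, whose baseline libraries held 1, 1 and 0 counts (95% confidence intervals 4.39 to 10.55 and 5.70 to 11.73). Pkmyt1, a kinase that holds Cdk1 inactive, rose by 2.81 and 2.43, whereas Wee1, a kinase with the same role, had values of 0.06 and 1.04 that did not pass (adjusted p = 0.95 and 0.14). Without baseline replicate 2 the Wee1 values were 0.81 and 1.79, the second of them called (adjusted p = 0.011). The CDK subunit Cks1b rose by 2.07 and 2.52, and its paralog Cks2 rose by 1.75 under NSC (adjusted p = 0.0073) with a value of 0.75 under vehicle (adjusted p = 0.18). The Cks2 value under NSC fell below the fold threshold after a correction for GC content (1.413) and without NSC replicate 3 (1.496). Cdc25a did so after that correction (1.47 under vehicle and 1.343 under NSC) and, under NSC, without NSC replicate 2 (1.455). Cdkn1a, which encodes the inhibitor p21, rose by 2.00 under vehicle (adjusted p = 0.030) with 1.53 under NSC (adjusted p = 0.054), and under 17 alternative settings the vehicle call was lost in 6 and a call was gained under NSC in 5, with values of 2.63 and 2.16 without baseline replicate 1. Cdkn1b, which encodes p27, rose by 1.02 under NSC (adjusted p = 0.0051) with 0.32 under vehicle (adjusted p = 0.34), and measured 15.7, 30.8 and 29.4 CPM in the NSC livers. Differences between treatments were not past the threshold for Cks2 (log2 difference 1.00, adjusted p = 0.20) or Cdkn1b (0.71, adjusted p = 0.14). For Cdk1 the difference was 1.19 (adjusted p = 0.33), and 1.67 and called without NSC replicate 1.

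Genes that destroy cyclins or are destroyed with their help were mixed. Cdc20, the activator of the anaphase-promoting complex that marks B-type cyclins for destruction, rose by 6.94 under vehicle (adjusted p = 0.0095) and 8.14 under NSC (adjusted p = 0.0040) on the log2 scale, and NSC livers held 8.31, 174 and 152 CPM. Its counterpart of late mitosis and G1, Fzr1, had values of -0.03 and -0.19 (adjusted p = 0.96 and 0.68). Skp2, which targets p27, rose by 1.85 and 2.42, whereas Fbxw7, which targets cyclin E, had values of -0.01 and 0.14 (adjusted p = 0.97 and 0.58). Rrm2, the ribonucleotide reductase subunit degraded through cyclin F, rose by 3.18 (adjusted p = 0.0053) and 3.75 (adjusted p = 0.0019), beside a Ccnf that passed no test. Without baseline replicate 2 the Rrm2 values were 4.10 and 4.68.

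Of 17 other genes named as cyclins, many of them tied to transcription or stress rather than to the cycle, 14 were tested. Under vehicle 3 of the 14 passed the adjusted p upward, beside 12.7% of all genes, and none downward, beside 11%. The 3 were Ccng1, a p53 target, at a log2 fold change of 0.99, Ccnyl1 at 0.75 and Ccnt1, a subunit of the elongation factor P-TEFb, at 0.54. Under NSC 6 rose, beside 18.2% of all genes, with Ccng1 at 1.33, Ccnyl1 at 1.18, Ccnc at 0.95, Ccnj at 0.68, Ccnt1 at 0.62 and Ccnh at 0.48. After a correction for GC content Ccnc was at 0.21 and no longer passed (adjusted p = 0.29 by edgeR), and Ccnh turned to -0.14. Ccno alone of the 14 passed downward, beside 16.5% of all genes, and it was called, beside 2.75% of all genes called lower. It fell by 1.89 on the log2 scale, from a baseline of 0.330 to 0.855 CPM to 0.0783 to 0.238 CPM, a call lost in 5 of 15 alternative settings. None of the increases reached the fold threshold, and 0 of the 14 passed between treatments by edgeR, where 4 had an unadjusted p under 0.05, beside 19.5% of all genes.

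Over the 9 libraries, the genes with the most similar log2 CPM were sought for each cyclin by Pearson's r, as a description over livers that share baseline and treatment steps. Ccna2 was closest to Cdk1 (r = 0.999), Mastl (0.998) and Aspm (0.997), Ccnb1 to Parpbp (0.999), Ube2c (0.998) and Ckap2l (0.997), and Ccnb2 to H2afx (0.998), Cdc20 (0.998) and Atp8b5 (0.996). Ccne1 was closest to Paqr4 (0.997), Lcn2 (0.992) and Cdc6 (0.988), and Ccne2 to Cdca7 (0.994), Kbtbd8 (0.991) and Nop56 (0.985). Ccnd1 was closest to S100a11 (0.989), Anxa2 (0.986) and Psat1 (0.986). The nearest genes of Ccnd2 (Rgs5, Trove2 and Luzp1), Ccnd3 (Etfb, Tmem147 and Stra13) and Ccnf (Zc3hc1, Tssc1 and Ifnar2) had r from 0.916 to 0.962. Among the cyclins themselves, r was 0.986 to 0.995 within the A- and B-type genes and 0.938 between Ccne1 and Ccne2, while Ccnf had r of -0.379 to 0.346 with the other 8.

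Markers of other cells moved as well between baseline and 40 hours. The summed level of 5 cholangiocyte markers was 37.75 to 40.58 CPM at baseline, 75.96 to 114.5 CPM under vehicle and 79.01 to 121.5 CPM under NSC, and 4 of the 5 passed upward under vehicle and 3 under NSC, beside 12.7% and 18.2% of all genes. Most of each sum was Spp1, at 31.2 to 36.3, 60.9 to 95.9 and 70.3 to 110 CPM. Epcam passed in neither comparison (log2 fold changes -0.44 and -0.27). Of 7 stellate and myofibroblast markers 4 passed upward under vehicle and 1 under NSC, with sums of 177.6 to 214.2, 273.5 to 332.9 and 211.8 to 353.9 CPM. Of the 5 macrophage markers found, 2 passed upward under vehicle and 3 under NSC, with sums of 99.36 to 148.0, 84.75 to 163.2 and 165.2 to 273.8 CPM, and the 6 endothelial markers held 172.9 to 180.1, 109.7 to 176.8 and 127.4 to 225.5 CPM. The 5 neutrophil markers held 1.80 to 6.48, 7.60 to 15.0 and 10.6 to 16.7 CPM, with Ly6g and Mpo at 0 in 2 and 5 libraries. The 6 lymphocyte markers were lower at 40 hours under vehicle, at 2.08 to 7.59, 0.591 to 2.05 and 1.49 to 2.25 CPM, with Cd3e at 0 in 1 library, and 2 of the 5 tested passed downward under vehicle and 1 under NSC, beside 11% and 16.5% of all genes. The 5 erythroid markers held 196.7 to 285.0, 85.36 to 144.4 and 99.98 to 191.6 CPM, and 1 of the 3 tested, Alas2, passed downward in each comparison. Most of the baseline sum was Alas2, at 123 to 166, 31.4 to 52.3 and 23.8 to 77.3 CPM. Hbb-bs (log2 fold changes -0.25 under vehicle and 0.12 under NSC) and Hba-a1 (-0.41 and -0.47) did not pass. The part of these cells in the cyclin changes was not tested. Genes that overlap a cyclin in the table (Oraov1 with Ccnd1, Bysl with Ccnd3, Ints8 with Ccne2 and Exosc9 with Ccna2) held 6.19 to 24.2 CPM, and whether reads were counted by strand is not given in the sources used here, so reads at those overlaps are uncertain. The pseudogenes Ccnd3-ps and Ccnb2-ps had at most 4 and 2 counts.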

How the data were processed

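Reads of 9 polyA libraries were aligned with STAR 2.6.1 and counted per gene with featureCounts (Subread 1.5.1), per the submitters' processing notes. Those notes name the human build hg38, whereas the gene coordinates in the table are those of mouse GRCm38. The authors deposited raw counts and FPKM per gene. The deposited FPKM were used for levels between genes and counts for all tests. Genes were filtered with filterByExpr, scaled by TMM and fitted in one model of 3 groups with edgeR 4.0.16 (R 4.3.3, robust quasi-likelihood), and the code was tested on simulated data. Each value column was matched to a sample by its title. Libraries of one group differed by more than sampling noise (chi-square per gene of 24.46 or more). Alternatives were DESeq2 1.42.0, other scalings, filters and thresholds, 2 groups only, the replicate block, each library left out and, added after the data were seen, a GC correction.

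All 9 cyclins are named in the text, with 18 of 34 partner genes, the other cyclins past the test and, for each cyclin, the 3 genes of highest Pearson's r (log2 CPM, prior count 2). The members and lists were chosen with earlier results of these data known. A planned search of protein motifs was not run.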

Additional observations from a re-analysis of the deposited data

How the results depend on the processing

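The count of cyclins called against baseline was 6 in both groups and stayed within a factor of 1.5 of that number in every alternative. It fell, for example, when each library had to hold 10 counts or more, where Ccnb1 and Ccne2 were not tested and could not be called. The count between treatments was 0 in all alternatives but 1, with a range of 0 to 3 when single libraries were left out. Of 453 alternative values for the cyclins' fold changes, 432 kept direction and call, 3 became calls and 18 turned sign, all 18 for changes that were not called. Livers with the same replicate number in different groups had correlations of -0.05 to 0.13 (deviations from group means). Pairs of unlike number were not measured for reference, so whether the numbers mark pairs is not settled. With a replicate block the cyclin counts were 6, 6 and 0, 5 genes in all were called between treatments, and Ccne1 between treatments (0.030) and Fzr1 under vehicle (0.012) turned sign. Over all genes, 1085 and 1222 were called against baseline and 3 between treatments. These became 596 and 704 when each library had to hold 10 counts or more, where Ccnb1 and Ccne2 were not tested, and 3564, 5207 and 6 with no fold threshold. Between treatments they were 51 by DESeq2, 20 with all genes of at least 1 count, 1 by library size alone, 5 with 2 groups only, 0 at the stricter threshold, 0 after GC correction and 0 to 181 without single libraries, the highest without NSC replicate 1. Ccne1 between treatments turned to 0.0075 by DESeq2, 0.0076 by RLE, 0.14 by library size, 0.16 after GC correction and -0.12 to 0.16 without single libraries. By library size Ccnd3 under NSC was 0.11 and Fbxw7 under vehicle 0.015 (0.00088 with the 10-count filter). After GC correction Ccnd3 was 0.27 under NSC and 0.029 between treatments, Wee1 -0.020 and Fzr1 0.033 under vehicle, and Cdk6 -0.31, Fbxw7 -0.10, Fzr1 0.26 and Ccnh -0.14 under NSC. Without single libraries, values spanned -0.23 to 0.81 for Wee1, -0.14 to 0.097 for Fbxw7 and -0.14 to 0.13 for Fzr1 under vehicle, -0.21 to 0.076 for Ccnd3, -0.12 to 0.47 for Ccnf, -0.16 to 0.33 for Cdk6 and -0.44 to 0.15 for Fzr1 under NSC, and -0.67 to 0.20 for Ccnd1 and -0.18 to 0.40 for Ccnd2 between treatments. The Ccnb2 to Ccnb1 ratio against baseline (-0.50 and -0.71) was -1.73 and -1.94 with 0.01 FPKM added, 0.70 and 0.50 with 1 added, and -1.87 and -2.08 from counts. Shares from counts were 51.4% and 52.5% D-type at baseline and under vehicle (33.6% and 40.2% by FPKM), 0.762% and 18.6% B-type, and 45.4% Ccnf at baseline. Shares from counts and from FPKM differ because only FPKM is divided by gene length. The shifts of the Ccnb2 to Ccnb1 ratio follow the amount added, beside a baseline Ccnb1 of 0.0362 FPKM on average. Causes of the other shifts were not tested. The nearest genes by pattern were unstable: at most 1 of 3 was shared with Spearman's rank or with the 6 libraries at 40 hours.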
